A study of Mus musculus with 3 samples.

Results

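In this study of serum response factor (SRF) binding in the mouse cornea, 1213 of 31850 merged regions were called in the wildtype library, were not called in the Dstn-corn1 mutant library, and had a wildtype peak height of at least 40. Peak height is the largest signal within a region, and the authors' presence calls say whether an interval was called there in each library. These regions were chosen by the calls and the wildtype height, so their heights are given below as a description with no test. Of the 9844 regions called in wildtype at a height of at least 40, the 1213 high wildtype-only regions made up 12.3%, and the other 8631 were called in both libraries and serve as the comparison. Over all 31850 regions, 49.0% were called in wildtype only, and nothing is read from these shares because the rule used the calls.

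SRF-bound DNA was isolated with an antibody (chromatin immunoprecipitation) and sequenced from whole cornea of untreated mice of mixed background aged about 8 weeks. There was 1 library from Dstn-corn1 mutants, whose destrin gene (Dstn) is not functional, 1 from wildtype mice, and 1 input library whose values were not used here. The label text on how the mice were kept names mutant mice for the wildtype and input libraries too, so genotype was taken from the titles, and the labels state neither the number of animals behind a library nor the genotype of the input. With 1 library per genotype, no difference has a replicate check, no p-value is given, and a difference between the libraries cannot be told apart from one between the genotypes. In whole cornea, fewer cells of a type and less binding per cell also cannot be told apart, and binding values do not measure expression, so cell type markers could not check the tissue. At Dstn itself, each of its 3 regions had a height of 0 in the library titled mutant, against 35, 11 and 13 in the library titled wildtype. Of all 31850 regions, 38 were at 0 in the mutant library. These values did not go against the titles. The Dstn region over the gene start, at 35 in wildtype, fell short of the height of 40, and none of the 3 is among the 1213.

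SRF is a transcription factor that binds a sequence called the CArG box, and it works with partners of separate families, the MRTF coactivators, which actin monomers hold inactive, and the TCF factors, which respond to growth signals. Destrin takes actin filaments apart, and the Dstn-corn1 mutation is known for filamentous actin in the corneal epithelium, epithelial overgrowth and vessel ingrowth. Known SRF targets include genes of the contractile and cytoskeletal actin machinery and immediate early genes such as Jun.

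Promoter sequence could be shown for members over a gene start. Of the 1213 members, 74 wholly contained a RefSeq promoter window (GRCm38.p6, the assembly that the submitters' notes name mm10), which runs from 250 bases before a gene start to 50 after it. The windows of the 6 highest of these members are shown for the 250 bases before the start, because they are the highest members with such a window. They lie at chr2:101678170-101678419 (plus strand) for Traf6, chr8:106150104-106150353 (plus) for Pla2g15, chr15:98707944-98708193 (plus) for Ccdc65, chr12:17000119-17000368 (minus) for Pqlc3, chr5:110230754-110231003 (plus) for Ankle2 and chr7:98702997-98703246 (plus) for Thap12, which the deposited table lists as Prkrir. Each is printed 5′ to 3′ on the strand of its gene, and capitals mark motifs found on either strand. The motifs are the CArG box, the CCAAT box, the ETS site (CCGGAAGT), the cyclic AMP response element (TGACGTCA) and the GC box (GGGCGG).
Traf6: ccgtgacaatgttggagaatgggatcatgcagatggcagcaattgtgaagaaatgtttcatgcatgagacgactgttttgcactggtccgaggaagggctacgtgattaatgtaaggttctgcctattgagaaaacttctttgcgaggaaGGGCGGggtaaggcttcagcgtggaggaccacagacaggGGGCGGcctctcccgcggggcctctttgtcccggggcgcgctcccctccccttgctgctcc
Pla2g15: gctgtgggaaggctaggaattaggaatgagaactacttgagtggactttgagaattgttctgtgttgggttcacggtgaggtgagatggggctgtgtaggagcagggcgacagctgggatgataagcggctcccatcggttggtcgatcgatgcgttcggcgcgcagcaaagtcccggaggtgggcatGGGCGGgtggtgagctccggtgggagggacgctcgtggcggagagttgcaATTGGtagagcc
Ccdc65: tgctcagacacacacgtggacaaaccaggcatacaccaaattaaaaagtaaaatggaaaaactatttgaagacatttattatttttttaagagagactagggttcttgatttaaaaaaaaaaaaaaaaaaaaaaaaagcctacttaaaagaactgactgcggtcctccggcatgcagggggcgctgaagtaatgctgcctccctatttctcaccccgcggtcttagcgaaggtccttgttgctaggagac
Pqlc3: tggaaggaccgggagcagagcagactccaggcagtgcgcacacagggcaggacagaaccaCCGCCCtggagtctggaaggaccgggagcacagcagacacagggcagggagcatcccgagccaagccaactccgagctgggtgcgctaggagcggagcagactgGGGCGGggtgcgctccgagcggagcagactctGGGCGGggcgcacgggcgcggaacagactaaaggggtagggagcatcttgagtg
Ankle2: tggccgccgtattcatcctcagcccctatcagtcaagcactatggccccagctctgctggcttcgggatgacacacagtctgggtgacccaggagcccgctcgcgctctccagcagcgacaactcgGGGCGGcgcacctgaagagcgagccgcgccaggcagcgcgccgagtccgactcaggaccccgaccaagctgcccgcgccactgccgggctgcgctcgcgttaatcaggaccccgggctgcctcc
Thap12: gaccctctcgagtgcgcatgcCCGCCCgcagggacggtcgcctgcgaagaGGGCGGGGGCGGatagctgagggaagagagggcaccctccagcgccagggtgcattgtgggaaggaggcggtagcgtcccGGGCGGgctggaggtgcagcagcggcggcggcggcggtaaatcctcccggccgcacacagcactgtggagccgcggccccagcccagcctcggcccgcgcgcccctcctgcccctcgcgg
No CArG box stands in these 6 stretches. GC boxes stand in those of Traf6, Pla2g15, Pqlc3, Ankle2 and Thap12, and that of Thap12 holds a pair of them joined end to end. A CCAAT box, read on the opposite strand as ATTGG, stands in that of Pla2g15, and the Ccdc65 stretch holds none of the motifs.

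The CArG box was found in none of the 74 member windows, a count of 0 that allows a share of up to 4.05%. It was found in 20 of 1389 windows of the regions called in both libraries (1.44%, exact binomial 95% interval 0.882 to 2.22) and in 1.63% of all 32851 RefSeq windows, so a difference was not detectable with 74 windows. With at most 1 mismatch, 12.2% of member windows held the box (5.71 to 21.8), against 15.8% of the comparison windows (14.0 to 17.9) and 21.1% of all RefSeq windows. The GC box stood in 52.7% of member windows (40.7 to 64.4), 62.1% of comparison windows (59.4 to 64.6) and 35.7% of all RefSeq windows. The CCAAT box stood in 24.3% of member windows (15.1 to 35.7) against 32.7% of comparison windows and 37.4% of all RefSeq windows. The ETS site, the motif of the protein family that includes the TCF partners of SRF, stood in 5 of 74 member windows (6.76%, 2.23 to 15.1), in 10.7% of comparison windows and in 3.89% of all RefSeq windows. The cyclic AMP response element stood in 4.05%, 2.88% and 1.79% of the same 3 sets, and the TATA box (TATAAA), which is not capitalised above, in 5.41%, 5.83% and 13.6%. For each of these motifs the intervals of member and comparison windows overlapped. The member windows had a median of 59.2% G or C and 19 CG pairs, the comparison windows 62% and 23, and all RefSeq windows 52.7% and 7. A match describes letters only, and no match says nothing of SRF binding outside the window, since sequence of the regions away from gene starts was not analysed here.

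Among the high wildtype-only regions the mutant library was low but rarely empty. Mutant heights ranged from 0 to 77 with a median of 12 (quartiles 10 and 15), against wildtype heights of 40 to 198 with a median of 46 (quartiles 42 and 52). The average signal over a region, a second deposited value, had a median of 5.43 in mutant and 16.2 in wildtype. The log2 ratio of mutant over wildtype height, with 1 added to each, had a median of -1.90 over the members, against -1.19 over the regions called in both and -1.10 over all regions. The mutant height was at least 2-fold lower in 1197 of 1213 members (98.7%), beside 59.0% of all regions, and at least 4-fold lower in 512 (42.2%), beside 8.75% of all regions. The rule used this contrast, and nothing is read from these counts. The scaling between the libraries is not stated in the labels. With the medians of the regions called in both made equal, which multiplied mutant heights by 2.1 and moved the median of all regions by 1.01 on the log2 scale, the members' median was -0.90, that of the regions called in both -0.15 and that of all regions -0.09. The mutant height was lower in each of the 1213 members as deposited and not lower in 21 of them after this scaling, of which 9 were among the 12 members with mutant heights of 30 or more.

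**Figure D1:**
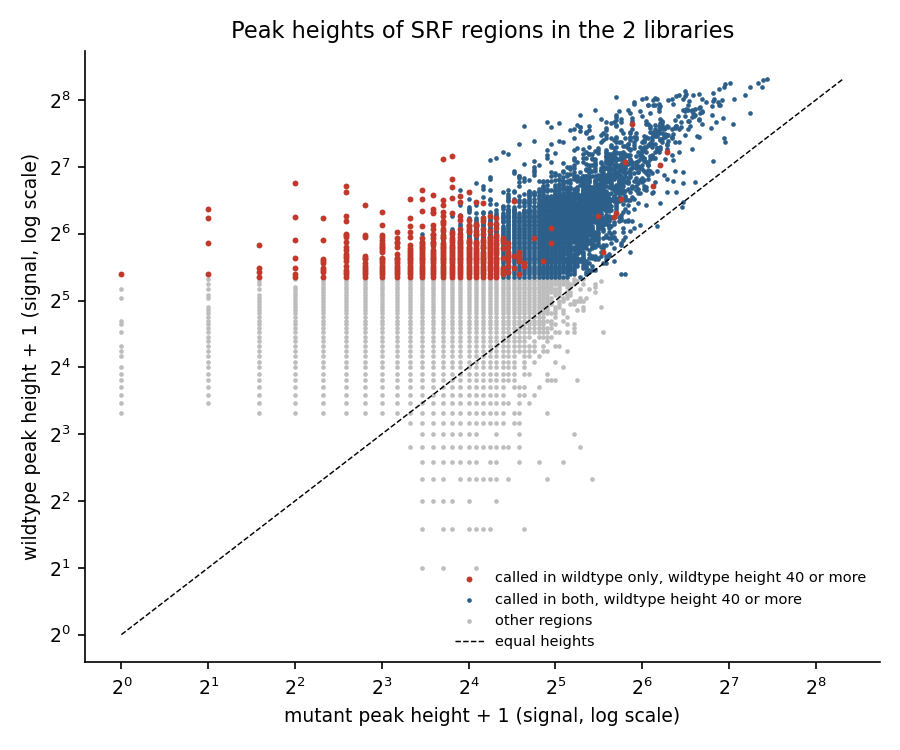
Peak height in the mutant library (horizontal, height + 1) and in the wildtype library (vertical, height + 1), both on log scales, with 1 point for each pair of heights that occurs. High wildtype-only regions lie along the left of the regions called in both, and 12 of them, with mutant heights of 30 to 77, lie among the regions called in both.

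An absent call did not mean a height below all called mutant intervals. The lowest mutant interval the authors called had a height of 9. In the mutant library, 1030 of 1213 members (84.9%, 82.8 to 86.9) reached at least that height. Whether such heights stood above background was not tested, because the input library was not used and the depth is unknown. Among all regions, 1.64% of those at a mutant height of 9 were called in mutant, 37.0% at 12, 76.2% at 15, 95.8% at 20 and 100% at 25. Members with mutant heights of 9 to 20 thus sat where only some regions of the same mutant height were called, whereas no region with a mutant height under 9 was called in mutant. Of the members, 663 (54.7%) had a mutant height of at most 12, the 5th percentile of regions called in mutant.

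**Figure D2:**
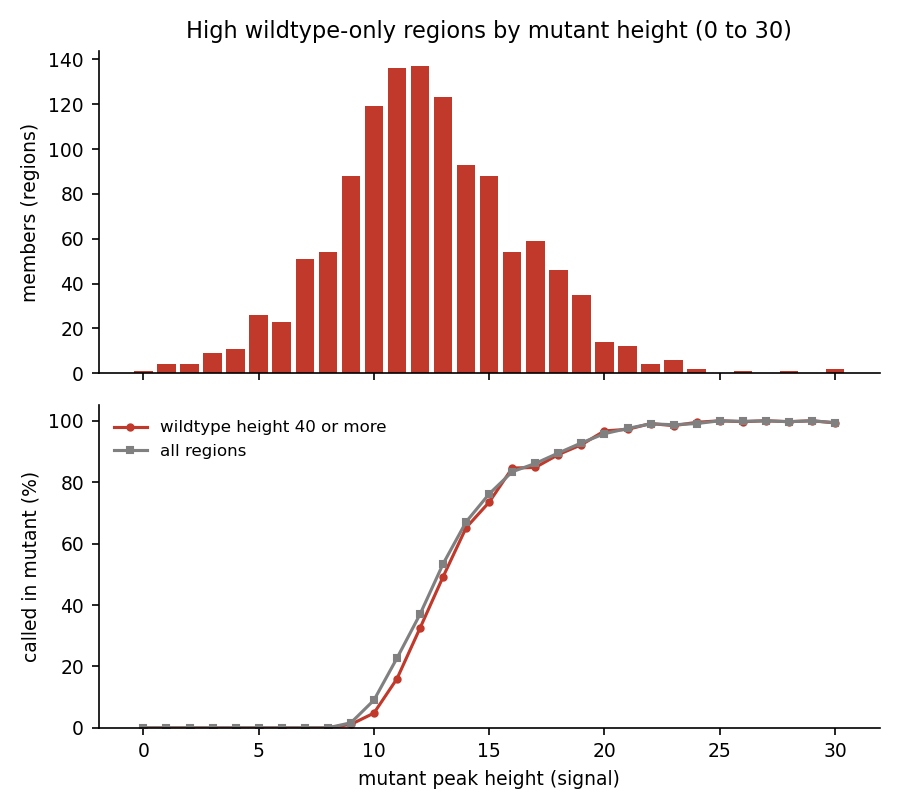
Number of high wildtype-only regions (top) and share of regions called in the mutant library (bottom, percent) at each mutant peak height up to 30, for regions of wildtype height 40 or more and for all regions. Members peak at a mutant height of 12, where 32.5% of regions of wildtype height 40 or more and 37.0% of all regions were called in mutant.

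Members at the height threshold and regions just under it had overlapping ranges of mutant height. The 107 members at a wildtype height of 40 had mutant heights of 2 to 19 with a median of 12, and the 160 wildtype-only regions at 39 had mutant heights of 1 to 22 with a median of 11.5. The lowest mutant heights just inside were 2 at Sh3gl3, an endophilin gene, 3 at Synj2, a phosphoinositide phosphatase gene, and 4 at chr8:120997650-120998326. Just outside they were 1 at chr13:60257918-60258281, 3 at 2010300C02Rik and 3 at Rbm20, an RNA splicing factor gene.

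The highest members with a low mutant height lay at genes of varied function. Wasf1, which encodes an activator of branched actin assembly, had a region inside the gene (chr10:40937324-40938225, 54240 bp from its start) with heights of 13 in mutant and 143 in wildtype. A region assigned to Mvd, a gene of cholesterol synthesis, and to Snai3, a Snail family repressor gene (chr8:122444224-122445047), had 12 in mutant and 138 in wildtype, and 9330133O14Rik and Gm20735 are assigned to it too. These were the highest members in wildtype apart from regions with mutant heights of 55 or more. Clip4, a gene of the CAP-Gly family of microtubule-linked proteins, had 5 in mutant and 104 in wildtype. Tmem45b, a transmembrane protein gene, had 13 in mutant and 103 in wildtype. Both regions lay inside the gene, 16913 and 14590 bp from the start. Ank3, which encodes the membrane-cytoskeleton adaptor ankyrin G, had 12 in mutant and 90 in wildtype at a region 247972 bp inside the gene. Unassigned regions of this height lay at chr19:30289625-30290306 (3 in mutant, 107 in wildtype), chr4:137250195-137250956 (5 and 98) and chr13:111844006-111844802 (11 and 95).

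Among members centred within 1 kb of a gene start, the highest was the region shared by Mvd and 9330133O14Rik, 979 bp from the start of 9330133O14Rik, with 12 in mutant and 138 in wildtype. The next was at Traf6, a ubiquitin ligase gene of inflammatory signalling, with 13 in mutant and 112 in wildtype (chr2:101678025-101678846). Pla2g15, a lysosomal phospholipase gene, had 10 in mutant and 100 in wildtype, and Zfp777, a zinc finger gene, had 15 in mutant and 98 in wildtype. Their centres lay upstream of the start, listed at -5, -24 and -552 bp, and all 3 regions overlapped a CpG island. Ccdc65, a gene of motile cilia, had 13 in mutant and 92 in wildtype. Pqlc3 had 9 in mutant and 91 in wildtype. The region of Ccdc65 alone among these 5 overlapped no CpG island. Ankle2, a gene for a nuclear envelope protein, had 11 in mutant and 82 in wildtype. Prkrir had 10 in mutant and 80 in wildtype. The mutant heights of the 10 highest of these promoter members, the region near Mvd and 9330133O14Rik included, lay between 9 and 15.

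Very low mutant heights were seen in a few members. The region at chr17:83000488-83000969, with no assigned gene, was the only member listed at 0 in mutant, and it had 41 in wildtype. Efcab6, a gene for an EF-hand protein, had 1 in mutant and 82 in wildtype (log2 ratio -5.38). Pik3r6, which encodes a regulatory subunit of a phosphoinositide 3-kinase, had 1 in mutant and 74 in wildtype (-5.23). Kif26a, a kinesin family gene, had 1 in mutant and 57 in wildtype (-4.86) at a region inside the gene, while its region upstream of the start, listed at -87, had 31 in mutant and 78 in wildtype and was called in both. Gm15753 had 2 in mutant and 56 in wildtype, and unassigned regions had 1 and 41 at chr8:34993325-34994127 and 3 and 75 at chr19:38458182-38458876. At these heights the depth is unknown, and no interval can be put on them.

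A set of 12 members had high mutant heights. Of 3054 regions with a mutant height of at least 30, 12 were not called in mutant, and all 12 were members, whereas the next highest member had 28. The tallest in mutant was at chr15:75085459-75087282, with 77 in mutant and 148 in wildtype. Next were chr11:109011558-109012264 with 73 in mutant and 129 in wildtype and chr2:98662154-98663067 with 69 in mutant and 104 in wildtype. Sfi1, a centrosome protein gene, had the highest wildtype value of all members, 58 in mutant and 198 in wildtype, at a region of 4600 bp (chr11:3154536-3159136). The region of Cdk8, a kinase gene of the Mediator complex, and Mir5105 had 50 in mutant and 75 in wildtype. The other 10 of the 12 had no assigned gene. The smallest difference was at chr2:98666156-98667448, with 46 in mutant and 52 in wildtype (log2 ratio -0.17). The 12 had a median average signal of 22.2 in mutant and 30.8 in wildtype, against 5.43 and 16.2 over all members. Repeat content of these regions and the input library were not analysed here, and their part in these values was not tested. Without the 12, the promoter share, CpG island share, gene-free share and median log2 ratio of the members were 8.41%, 8.91%, 30.2% and -1.91.

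Position was not used by the rule, and the high wildtype-only regions lay farther from gene starts than those called in both. A centre within 1 kb of an assigned gene start was found in 102 of 1213 members (8.41%, 6.91 to 10.1), against 20.9% of the regions called in both (20 to 21.8) and 22.7% of all regions. CpG islands were overlapped by 8.99% of members (7.44 to 10.7) and 22% of regions called in both (21.1 to 22.9). No gene was assigned to 373 members (30.8%, 28.2 to 33.4), against 21.7% of regions called in both (20.9 to 22.6) and 23.8% of all regions. For these 3 shares the intervals of members and regions called in both did not overlap. They cover counting error over regions within these libraries and not the variation between animals. The other 14380 wildtype-only regions, of heights under 40, had a promoter share of 19.1% (18.4 to 19.7), a CpG island share of 18.6% and a gene-free share of 27.2% (26.5 to 27.9).

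**Figure D3:**
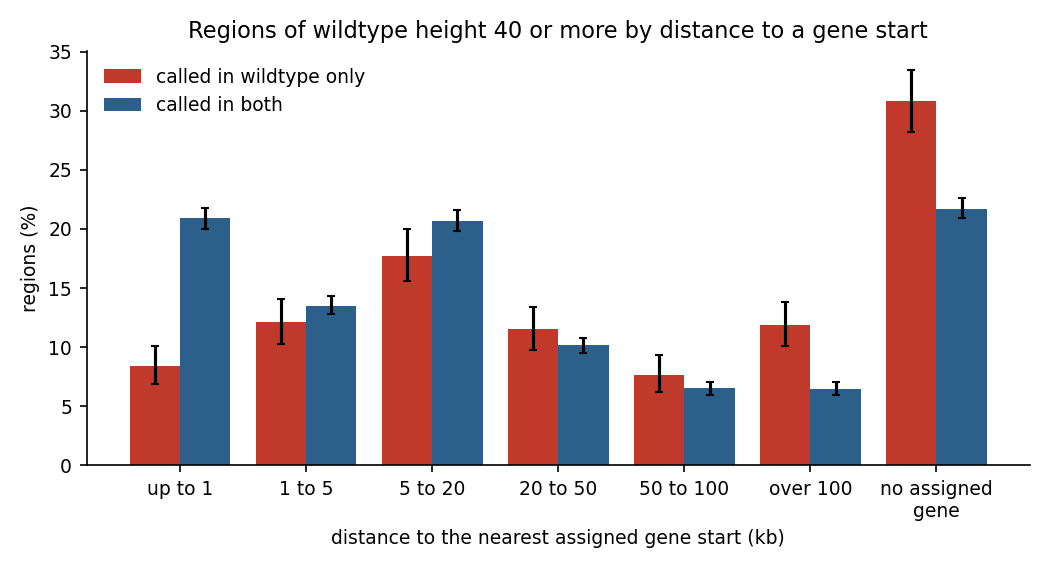
Share of regions of wildtype height 40 or more (percent, with exact binomial 95% intervals) by distance to the nearest assigned gene start in kb, for high wildtype-only regions and regions called in both. Members are fewer within 1 kb (8.41% against 20.9%) and more numerous beyond 100 kb (11.9% against 6.48%) and without an assigned gene (30.8% against 21.7%).

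Members with an assigned gene lay at a median of 14620 bp from the nearest start, against 6811 bp for regions called in both. The nearest such gene contained the member in 517 of 840 cases (61.5%, 58.2 to 64.9), against 49.4% of regions called in both (48.2 to 50.6). The host genes of members were long, with a median length of 75194 bp against 44748 bp, and the members lay at a median of 52.9% of the gene length from the start, against 45.2%. Start distances over 100 kb were found in 17.1% of members with a gene (14.7 to 19.9), against 8.28% (7.63 to 8.96). The members were also shorter than the regions called in both, with a median of 643 bp against 752 bp. A region called in both merges intervals of both libraries, so these lengths are not like for like and nothing is read from them. The CpG island shares were not matched for length.

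The comparison regions were higher in wildtype than the members, so the shares were also set side by side within height classes. At wildtype heights of 40 to 49, promoters held 8.34% of 803 members (6.52 to 10.5) and 14.7% of 2862 regions called in both (13.5 to 16.1). At 50 to 59 they held 5.13% of 273 members (2.83 to 8.45) and 14.1% of 2126 regions called in both (12.6 to 15.6). The intervals did not overlap in either class. At 60 to 79 the promoter shares were 11.2% of 107 members (5.93 to 18.8) and 19.7% of 2177 regions called in both (18.1 to 21.4), and the intervals overlapped. At 80 or more they were 30% of 30 members (14.7 to 49.4) and 44.6% of 1466 regions called in both (42.0 to 47.2), with overlapping intervals too. CpG island shares were lower and gene-free shares higher in members in each of the 4 classes. The members made up 21.9%, 11.4%, 4.68% and 2.01% of the 4 classes from low to high. Within mutant heights of 10 to 19, the promoter share was 8.76% of 890 members (6.99 to 10.8) and 13.8% of 2043 regions called in both (12.3 to 15.4). The gene-free share there was 30.7% (27.7 to 33.8) and 26.5% (24.6 to 28.5), where the intervals overlapped. Median mutant heights in this class were 13 for members and 17 for regions called in both, so it did not make mutant heights equal.

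**Figure D4:**
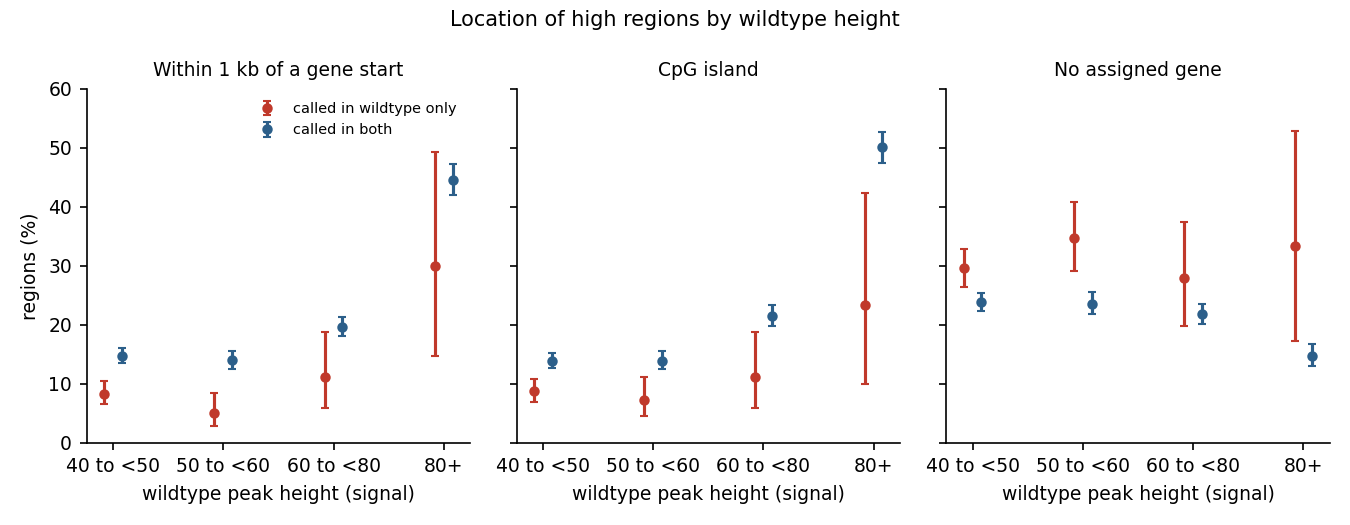
Promoter, CpG island and gene-free shares (percent, with exact binomial 95% intervals) in 4 classes of wildtype peak height, for high wildtype-only regions and regions called in both. Members lie below the regions called in both for promoters and CpG islands and above them for regions without a gene in all 4 classes, and the intervals overlap for promoters at 60 to 79 and at 80 or more and for gene-free regions at 60 to 79 only.

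The members were spread along the genome. By chromosome, they made up between 9.72% (chromosome 16, 6.7 to 13.5) and 17.8% (chromosome 13, 62 of 349 regions, 13.9 to 22.2) of the regions called in wildtype at a height of at least 40, leaving aside chromosome Y, where they were 0 of 4. Another member lay within 100 kb of 194 members (16%, 14.0 to 18.2). The same share among the 8631 regions called in both was 74.5%, but that set is larger, so the shares are not comparable. Of the groups so formed, 78 held 2 members, 10 held 3 and 2 held 4. A group of 4 on chromosome 9 (46301944 to 46393435) included regions at Bud13 and 4931429L15Rik, with mutant heights of 7 to 14 and wildtype heights of 42 to 76. A group of 4 without assigned genes on chromosome 13 (53688265 to 53812326) had mutant heights of 11 to 16 and wildtype heights of 43 to 66. A region called in mutant lay within 10 kb of 268 members (22.1%, 19.8 to 24.5).

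The 840 members with a gene were assigned to 1096 genes, 6.56% of the 16697 genes with any region. Of these genes, 649 (59.2%, 56.2 to 62.1) had another region that was called in mutant, whereas 73.9% of all 16697 genes (73.3 to 74.6) had any region called there. By the rule a member itself cannot count as called in mutant, so these shares are not comparable. There were 35 genes with 2 members and 3 genes with 3. Ank3 had members of 12, 6 and 2 in mutant and 90, 46 and 42 in wildtype, all inside the gene. Sptbn4, which encodes a beta spectrin known to bind ankyrin G, had members of 20, 10 and 9 in mutant and 42, 40 and 40 in wildtype. The member of 20 and 42 lay inside Blvrb and upstream of Sptbn4, listed at -2860 from its start. Camta1, a gene for a calmodulin-binding transcription factor, had members of 12, 9 and 14 in mutant and 52, 44 and 41 in wildtype. These genes had many regions. Beside any given member, Ank3 had 14 others (7 called in mutant), Camta1 17 (9) and Sptbn4 8 (5). The median length of genes with a member was 28445 bp, against 18251 bp for all genes with a region.

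Of 725 genes in 18 lists that had any region, 65 had a member (8.97%, beside 6.56% of all genes with a region), and 369 (50.9%) had a region of wildtype height 40 or more called in both. Among actin cytoskeleton and MRTF-linked targets, 4 of 37 genes (10.8%) had a member. Tagln, which encodes the actin-binding protein transgelin, had 21 in mutant and 52 in wildtype at a region listed at -1000 from the start and shared with Pcsk7 and Sidt2. Its other region, 16050 bp from the start, had 16 in mutant and 4 in wildtype. Itga5, a fibronectin receptor subunit gene, had 11 in mutant and 51 in wildtype at a region inside the gene, 13638 bp from its start. Tpm3, a tropomyosin gene, had 9 in mutant and 48 in wildtype at a region listed at -6919 from its start. That region lay inside 1700094D03Rik and was shared with 4933434E20Rik and Mir190b too. Cald1, which encodes the actin-binding protein caldesmon, had 9 in mutant and 42 in wildtype inside the gene, 50772 bp from its start. For Itga5, Tpm3 and Cald1 the highest other region was called in mutant, with 17, 16 and 19 in mutant and 45, 45 and 37 in wildtype. In the same list 19 of 37 genes had a region of wildtype height 40 or more called in both.

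Among genes of actin filament turnover, 2 of 25 had a member (8.0%, beside 6.56% of all genes with a region). Ssh2, a phosphatase gene that activates cofilin-type proteins, had 10 in mutant and 48 in wildtype. Gsn, which encodes the filament-severing protein gelsolin, had 14 in mutant and 42 in wildtype. These regions lay inside Ssh2 and Gsn, 230363 and 9111 bp from the start. Of the 6 other regions of Ssh2, 4 were called in mutant, and the highest had 24 in mutant and 61 in wildtype. Gsn also had a region of 44 in mutant and 80 in wildtype that was called in both. Of 27 immediate early and TCF-linked targets, only Jun had a member, with 13 in mutant and 53 in wildtype, centred 1697 bp past its start. The Jun region upstream of the start, listed at -609, was called in both, with 27 in mutant and 66 in wildtype. Of 7 genes for SRF and its cofactors, 1 (14.3%) had a member. The shares of these small lists rest on few genes, and nothing is read from them. The cofactor gene was Myocd, which encodes the muscle cofactor myocardin, and its member had 9 in mutant and 49 in wildtype. That member lay inside the gene, 72539 bp from its start, and no other region was assigned to Myocd.

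**Figure D5:**
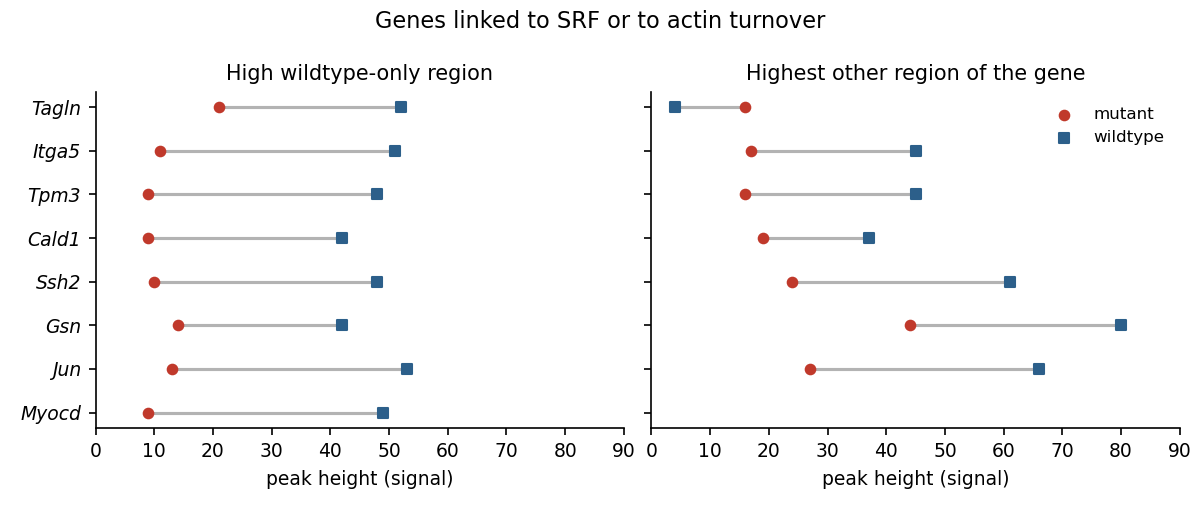
Peak heights in mutant (circles) and wildtype (squares) at the high wildtype-only region (left) and at the highest other region (right) of 8 genes linked to SRF or to actin turnover, with a line joining the values of a gene. On the right, Tagln has 16 in mutant and 4 in wildtype, the other genes with a second region are higher in wildtype as deposited, and Myocd has no other region. With the medians made equal, the other regions of Cald1 and Gsn are higher in mutant.

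Lists of cell types were small, and the share of all genes with a member to read them against is 6.56%. Of 16 corneal epithelium and keratin genes, Pkp1, which encodes a desmosome protein, had the 1 member (6.25% of the list), with 17 in mutant and 48 in wildtype. Of 11 stroma genes, Col5a1, a fibrillar collagen gene, had the 1 member (9.09%), with 11 in mutant and 47 in wildtype. Of 12 blood vessel genes, 2 (16.7%) had a member. Cdh5, the endothelial cadherin gene, had one with 11 in mutant and 49 in wildtype. Flt4, a receptor gene of lymphatic endothelium, had one with 8 in mutant and 41 in wildtype. The members of Pkp1, Col5a1 and Flt4 lay inside the gene, 36083, 13650 and 26974 bp from the start. That of Cdh5 lay downstream of the gene, 44877 bp from its start. The 1 other region of Cdh5 (5 in mutant, 24 in wildtype) and the 2 of Flt4 (highest 13 and 32) were not called in mutant. The 1 other region of Pkp1 (31 and 57) and 1 of the 5 of Col5a1 (20 and 45) were called there. Over all regions 49.0% were called in wildtype only, so nothing is read from these few regions. The lists of corneal endothelium (5 genes), smooth muscle and pericytes (9), leukocytes (8), proliferation (13) and unrelated tissues (15) held no member.

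In other lists the shares were 10.7% of 299 solute carrier genes (32), 16.2% of 37 kinesin genes (6), 10% of 20 receptor tyrosine phosphatase genes (2), 8.11% of 37 Wnt pathway genes (3) and 4.0% of 75 cadherin and protocadherin genes (3). Ptprm, a receptor tyrosine phosphatase gene of cell contacts, had 3 in mutant and 59 in wildtype, and its relative Ptprk had 6 in mutant and 48 in wildtype, both deep inside long genes. Slc9a7, a sodium/hydrogen exchanger gene, had the highest solute carrier member, with 14 in mutant and 73 in wildtype. Slc10a2, a bile acid transporter gene, had 11 in mutant and 66 in wildtype at a region listed at -1791 from its start. Wnt9a, a Wnt ligand gene, had 12 in mutant and 66 in wildtype at a region listed at -3958 from its start. Of its 4 other regions, 3 were called in mutant, and the highest had 32 in mutant and 67 in wildtype. For Ptprm 2 of 5 other regions were called in mutant. The 1 other region of Ptprk and that of Slc9a7 were not called there, and Slc10a2 had no other region. The solute carrier list was made by name prefix and includes 2 adaptor protein genes, Slc4a1ap and Slc9a3r1. In all lists together, 19 genes had a member within 10 kb of their start.

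The members were assigned to 14 microRNA genes in 12 regions, and 12 of these genes had a mature sequence in the RefSeq table. Mir5105 and Mir195 had none there and could not be compared with the rest, although Mir195 shares its region with Mir497. That shared region wholly contained the promoter window of another gene, 0610010K14Rik. Sequences of the 5p arms are shown for Mir181c and Mir181d, whose products share a seed (bases 2 to 8, in capitals), as no other pair among those 12 did, for Mir10b, which lies in the HoxD gene cluster, and for Mir34a, which is known as a p53 target.
miR-181c-5p: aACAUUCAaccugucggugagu
miR-181d-5p: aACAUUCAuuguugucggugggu
miR-10b-5p: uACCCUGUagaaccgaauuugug
miR-34a-5p: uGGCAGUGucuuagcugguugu
Mir181c and Mir181d shared a region (chr8:84173727-84174392) with 10 in mutant and 43 in wildtype, centred 4902 and 4728 bp from their starts. The region assigned to Mir10b (chr2:74715677-74716410) had 13 in mutant and 63 in wildtype and lay upstream, listed at -10027. It wholly contained the promoter window of another gene, Hoxd3os1. That of Mir34a (chr4:150073135-150073556) had 14 in mutant and 41 in wildtype, 4891 bp from the start. Each miRNA gene region lies kilobases from its hairpin except that of Mir5105, 204 bp from its start and among the 12 of high mutant height.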

How the data were processed

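SRF ChIP-seq libraries were available for 1 mutant and 1 wildtype group of corneas, with 1 input library. Per the submitters' processing notes, BWA was used and the genome build was mm10. The interval caller, its threshold and any scaling were not given in the sources used here. As signal values, the authors deposited what the file headers call the peak and average value, per interval or merged region, with a presence call per library, assigned genes, distances to gene starts and CpG island overlap. No read totals were used, and the depth of the libraries is unknown. No source says whether listed starts count from 0.

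Members and gene lists were chosen with earlier results of these data known. Named members were the 15 highest in wildtype, those listed at 0 in mutant and the 10 lowest log2 ratios, the 5 highest in mutant, the 10 highest within 1 kb of a gene start, up to 5 per list, those beside the height threshold, genes with 3 members and the longest groups within 100 kb. Not all of these are described, and members of mutant height 30 or more and the miRNA genes were added after their values were seen. Some results are not reported here. Log2 ratios used a pseudocount of 1, which understates differences between low heights, and the member at 0 gets no fold. Shares carry exact Clopper-Pearson 95% intervals and a count of 0 the limit of 3 counts, for counting error only. Of 16697 assigned genes, 12414 matched a RefSeq promoter window by gene ID, and 73.2% of these had a start within 1 base of the deposited one. Windows were placed in regions by their coordinates, 1 per region. The interval code was tested on simulated data, and a copy of the CArG box pattern was tested on planted boxes. The other motif patterns, the mismatch search and the window placement were not tested. The alternatives were a wildtype height of at least 50, a mutant interval distance of 500 bp, other promoter and neighbour distances, the average value, a pseudocount of 5, common scaling, and leaving out members of mutant height 30 or more. The code used pandas 2.3.3, numpy 2.4.6, scipy 1.17.1 and matplotlib 3.10.9 under Python 3.11.15.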

Additional observations from a re-analysis of the deposited data

How the results depend on the processing

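No paired analysis was possible because only 1 library stood for each genotype and nothing paired them. A value counted as moved when it left the 95% interval of the reported value, or for a count when it differed by over 1.5 times, and 12 of 24 alternative values moved, none changed sign, and the cause was not tested beyond what each setting does by construction. The number of high wildtype-only regions was 410 with a wildtype height of at least 50 and 663 with a mutant height of at most 12. Their promoter share was 20.5% within 5 kb of a gene start, against 34.4% of regions called in both, and 20.9% by the authors' promoter count, against 36.6%, so members were lower under each definition. The median log2 ratio was -1.43 by average value, -1.62 with a pseudocount of 5, -0.90 with common scaling and -2.08 at a height of at least 50. Another member lay within 20 kb of 4.53%. Listed genes with a member numbered 19 with a start within 10 kb and 20 at a height of at least 50. The CArG box share of promoter windows was 12.2% with at most 1 mismatch. That setting, a height of at least 50 for the windows, and leaving out the 12 members of mutant height 30 or more were chosen after seeing the data. The CArG box search of whole regions could not be made, since no genome of the build was used. The unknown depth and the single library per genotype limit every height and ratio.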
